A study of Mus musculus with 32 samples.

Results

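The comparison described here sets whole blood of unirradiated Scid mice against whole blood of unirradiated wild-type (WT) mice, across all genes detected on the arrays. Its members were chosen by their labels alone: 5 arrays labelled Scid at 0 Gy and 6 labelled WT at 0 Gy, which together are 11 of the 32 arrays of the series. The study measured blood gene expression 24 h after X-rays or a mock exposure in 3 genotypes. All mice were male with the strain given as C57BL/6, each array held the RNA of 1 mouse, and blood was drawn from the heart into a tube that stabilises RNA, after which globin transcripts were reduced. The unirradiated groups were Scid (genotype Scid, n = 5), ATM-KO (genotype ATM-/-, n = 5) and WT (n = 6), and levels of Scid mice given 3 Gy (n = 5) are quoted in a few places. The labels name no allele for Scid and no line of origin.

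Scid mice carry a mutation in Prkdc, which encodes the catalytic subunit of the DNA-dependent protein kinase. This kinase joins broken DNA ends, and developing B and T cells need it to complete V(D)J recombination, the cutting and rejoining of gene segments that builds immunoglobulins and T cell receptors. Scid mice are known for a shortage of mature B and T cells, with some animals forming a few ("leaky" Scid), while natural killer (NK) cells and myeloid cells do not need recombination and are present. In blood, which holds many cell types, fewer cells of a type and less RNA per cell cannot be told apart.

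A probe counts as detected where the scanner software calls its signal well above background. Levels are given as log2 signal relative to the 75th percentile of the array, so 0 is the level of a probe at that percentile and each unit is a doubling. Differences are log2 values, Scid minus WT, with their standard error (SE) from limma, and a gene was called when its p, after Benjamini-Hochberg adjustment across all 15179 tested genes, was under 0.05. On the 11 arrays no gene was called: 0 of 15179 (0%), with a smallest adjusted p of 0.899 in limma. At an unadjusted p under 0.05 there were 499 genes (3.29%), 265 higher (1.75%) and 234 lower (1.54%) in Scid. The median difference over all genes was 0.0856, and 43.0% of all genes had a lower mean in Scid. The groups did not overlap in 4 genes (0.0264%), of which Armcx3, Pdcd10 and the unnamed transcript NAP111388-1 were higher in Scid (0.0198%, by 0.67, 0.75 and 0.83) and Rmdn1 was lower (0.00659%, -0.77). These 4 were named after their values were seen.

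The labels were first set against the targeted gene and the cell type markers. Prkdc has 1 probe on the array (chromosome 16, 15839317 to 15841922, mouse build mm9), which was well above background on 0 Scid arrays and 2 WT arrays and did not pass the detection filter, so it gives no check of the genotype. The recombination genes Rag1 and Rag2 were not well above background on any of the 11 arrays. B and T cell markers did separate the arrays, but not only by label. Cd79b, which encodes a signalling chain of the B cell antigen receptor (chromosome 11, 106172780 to 106172839), had levels of -2.25, -3.12, -3.37, 5.41 and -2.28 on Scid replicates 1 to 5. On WT arrays it had 4.76, 6.37, 4.03 and 5.09 on replicates 1, 2, 4 and 5 but -2.38 and -2.81 on replicates 3 and 6. Thus 4 Scid arrays had no Cd79b signal well above background, the array labelled Scid replicate 4 was as bright as the bright WT arrays, and the arrays labelled WT replicates 3 and 6 were as dim as the dim Scid arrays.

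Of these 3 arrays, WT replicate 6 was also dim as a whole, with 28.1% of probes well above background, where Scid arrays had 25.1 to 47.8% and the other WT arrays 34.2 to 53.4%. Over the groups this share was 37.1 ± 8.41% in Scid (SD, n = 5) and 40.8 ± 9.92% in WT (SD, n = 6), which did not pass an exact two-sided permutation test over the 462 splits (p = 0.524). Over all genes the array labelled Scid replicate 4 correlated best with WT replicate 2 (r = 0.973) and the array labelled WT replicate 3 best with Scid replicate 2 (r = 0.979). A best match in the other genotype was not particular to them, since WT replicates 1 and 6 both correlated best with Scid replicate 1 (r = 0.956 and 0.960). Both arrays lay on slide 4. Whether these arrays carry the wrong label, or come from a Scid mouse that formed lymphocytes and a WT mouse with few, was not tested, and Scid replicate 4 and WT replicate 3 mean here the arrays so labelled. List medians and the main genes below are therefore given with all 11 arrays and, as a description, without Scid replicate 4 and WT replicate 3. Since that pair was picked for its lymphocyte levels, what the remaining 9 arrays show for lymphocyte genes follows in part from the choice and supports nothing by itself. Without the pair, 35 genes were called (0.231%), 34 lower (0.224%) and 1 higher (0.00659%), and at an unadjusted p under 0.05 there were 1000 lower (6.59%) and 1010 higher (6.65%).

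**Figure D1:**
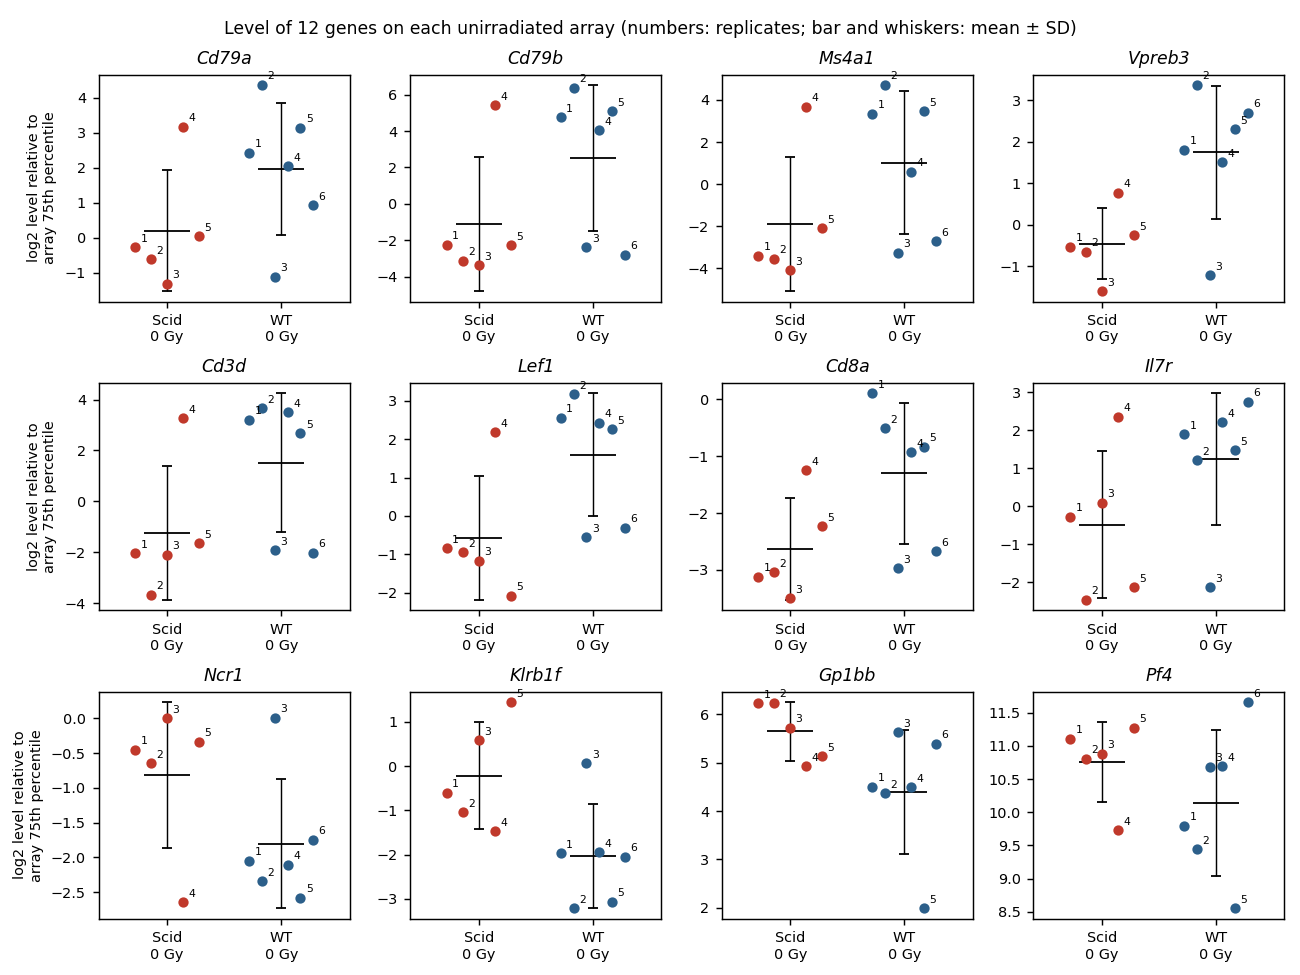
Level of 12 genes on each unirradiated array, as log2 signal relative to the array's 75th percentile, with Scid left (red) and WT right (blue). Numbers beside points are replicates, and the bar and whiskers are the mean and SD. Cd79b, Ms4a1 and Cd3d split into bright and dim arrays, with Scid replicate 4 among the bright ones and WT replicates 3 and 6 among the dim ones.

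B cell transcripts were lower in Scid blood in most listed members, though none was called with all arrays. Of 34 listed B cell genes 31 were tested, and 25 of them had lower and 6 higher means in Scid, with a median of -0.99 against 0.0856 over all genes, and of -0.58 without WT replicate 2. At an unadjusted p under 0.05 there were 11 lower (1.54% over all genes) and 0 higher. Without the pair the median was -1.48 and 8 of the 31 fell (0.224% over all genes).

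The lowest p of any gene belonged to Vpreb3, whose product resembles part of the surrogate light chain of B cell precursors. Its levels (chromosome 10, 75412326 to 75412385) were -0.53, -0.65, -1.6, 0.77 and -0.25 on the 5 Scid arrays. WT levels were 1.82, 3.38, -1.22, 1.51, 2.30 and 2.71 on the 6 arrays. Every WT array but replicate 3 lay above every Scid array, so dim WT replicate 6 was on the WT side here, unlike for Cd79b. The difference was -2.20 (SE 0.56, unadjusted p = 0.000412, limma adjusted p = 0.899), and without the pair it was -3.10 (adjusted p = 0.00185). Ccr6, the receptor for the chemokine Ccl20 on B cells and some T cells (chromosome 17, 8449933 to 8449992), had -1.91, -2.13, -3.16, 0.47 and -1.41 on Scid arrays. On WT arrays it ran from -1.24 to 1.84, and WT replicates 3 and 6 were the lowest. Its difference was -1.91 (SE 0.56), and without the pair Ccr6 was at least 6.61-fold lower (limma adjusted p = 0.0123).

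The promoters of these 2 genes are shown because both hold the octamer ATGCAAAT (ATTTGCAT on the other strand), the motif read by the Oct1 and Oct2 proteins and their B cell partner Pou2af1. The sequences are RefSeq's, build GRCm38.p6, from 250 bases before the start of the gene to 50 after it, with the octamer in capitals. Vpreb3 is chr10:75948050-75948349 and Ccr6 chr17:8235793-8236092, both on the plus strand.
Vpreb3: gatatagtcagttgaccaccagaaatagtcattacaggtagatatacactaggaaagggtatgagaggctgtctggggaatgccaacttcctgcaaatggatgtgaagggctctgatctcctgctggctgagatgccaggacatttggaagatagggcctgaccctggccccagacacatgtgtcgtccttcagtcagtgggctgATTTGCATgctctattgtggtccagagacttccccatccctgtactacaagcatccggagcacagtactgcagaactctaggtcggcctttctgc
Ccr6: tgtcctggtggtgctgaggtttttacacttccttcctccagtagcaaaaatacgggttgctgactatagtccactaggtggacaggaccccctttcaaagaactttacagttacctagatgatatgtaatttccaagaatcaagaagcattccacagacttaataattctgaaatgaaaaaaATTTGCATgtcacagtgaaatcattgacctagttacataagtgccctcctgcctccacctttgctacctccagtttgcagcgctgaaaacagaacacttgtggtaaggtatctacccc
The motif begins 45 bases before the start of Vpreb3 and 68 bases before that of Ccr6. It was found in 570 of all 32851 promoters of that length (1.735%), counting both strands. Among tested B cell genes, 25 had a promoter in the table, and 3 of their 32 promoters held it (Blnk, Ccr6 and Vpreb3). A match is a stretch of letters and not evidence of binding.

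Cd79b itself differed by -3.63 (SE 1.39, unadjusted p = 0.0138), and without the pair it was at least 63.5-fold lower in Scid (adjusted p = 0.00904). Ms4a1, which encodes the B cell surface protein CD20, had -3.39, -3.54, -4.09, 3.68 and -2.09 on Scid arrays. WT arrays had 3.34, 4.72, 0.59 and 3.46 on replicates 1, 2, 4 and 5, and -3.25 and -2.71 on replicates 3 and 6. The difference was -2.91 (SE 1.22), and without the pair Ms4a1 was at least 20.8-fold lower (limma adjusted p = 0.0132). In Scid mice given 3 Gy, an exposure that itself depletes lymphocytes, Ms4a1 was well above background on 0 of 5 arrays, Cd79b on 2 and Fcmr on 3.

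Cd79a, the partner chain of Cd79b, rests on a probe with a doubtful position. The brighter of its 2 kept probes had -0.27, -0.60, -1.31, 3.17 and 0.05 on Scid arrays and 2.43, 4.37, -1.11, 2.05, 3.14 and 0.93 on WT arrays, a difference of -1.76 (SE 0.70), or -3.12 without the pair (limma adjusted p = 0.00854). The array files place that probe on chromosome 12 (53180558 to 53180617) and the other on chromosome 7 (25684357 to 25684614). The probe on chromosome 7 differed by 0.21, so the 2 probes named Cd79a disagree.

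Transcription factors and maturation genes of B cells followed, all named here after their values were seen except where stated. Pou2af1, the partner of the octamer-binding proteins, differed by -2.27 (SE 1.04), with 0.98 on Scid replicate 5 beside 2.68 on replicate 4, and by -3.97 without the pair (limma adjusted p = 0.0675). Spib, an Ets factor of B cells and plasmacytoid dendritic cells, differed by -2.21 (SE 0.86), and by -3.50 without the pair (limma adjusted p = 0.0615). Fcmr, the receptor for IgM, differed by -2.74 (SE 0.99) with all arrays and by -4.70 without the pair (limma adjusted p = 0.00247). Other B cell genes differed less. Cd24a and Syk, the brightest members and so named by rule, are also expressed in red cell precursors and in myeloid cells, and differed by 0.18 and -0.62. Pax5, Cd22 and Tnfrsf13c differed by -0.42 (SE 0.59), -0.38 (SE 0.30) and 0.52 (SE 0.47).

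The arrays hold 136 probes that their descriptions assign to immunoglobulin genes, of which 55 passed the detection filter. This set was chosen after values were seen, and passing the filter required signal in some group. Of the 55, 10, 8, 10, 54 and 10 were well above background on Scid replicates 1 to 5. On WT replicates 1 to 6 the counts were 53, 55, 8, 25, 55 and 6. In ATM-KO mice they ran from 49 to 54, and in Scid mice at 3 Gy from 8 to 22. So 4 of 5 Scid arrays and WT replicates 3 and 6 had 6 to 10 immunoglobulin probes with signal, and WT replicate 4 lay between.

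The constant regions, which all antibodies of a class or light chain type share, show the same. The kappa light chain constant region (chromosome 6, 70676692 to 70676751) had -1.41, -2.71, -2.67, 5.58 and -1.48 on Scid arrays and 5.55, 6.46, -2.09, 3.83, 5.13 and -2.07 on WT arrays. Without the pair it was at least 57.6-fold lower in Scid (limma adjusted p = 0.0083). The heavy chain constant mu probe (chromosome 12, 114659630 to 114659689), part of IgM, had -3.18, -2.64, -1.97, 3.34 and -2.27 on Scid arrays. On WT arrays it had 2.16, 3.47, -2.30, 0.80, 1.34 and -2.54. Scid replicate 4 therefore held kappa, mu and lambda transcripts together, and 54 of the 55 probes. By chain, replicate 4 had 20 of 21 heavy, 19 of 19 kappa and 3 of 3 lambda probes with signal, against at most 6, 2 and 0 on the other Scid arrays. Jchain, which links IgM and IgA into polymers, is also named after its values were seen. It was 0.34 on Scid replicate 4 and at most -1.95 on the other Scid arrays. On WT arrays it had -3.13 to 2.14, a difference of -1.70 (SE 0.75). Iglv1 and Ighv14-2, the brightest of the 3 tested genes of the immunoglobulin list and so named by rule, differed by -2.11 and -0.80.

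**Figure D2:**
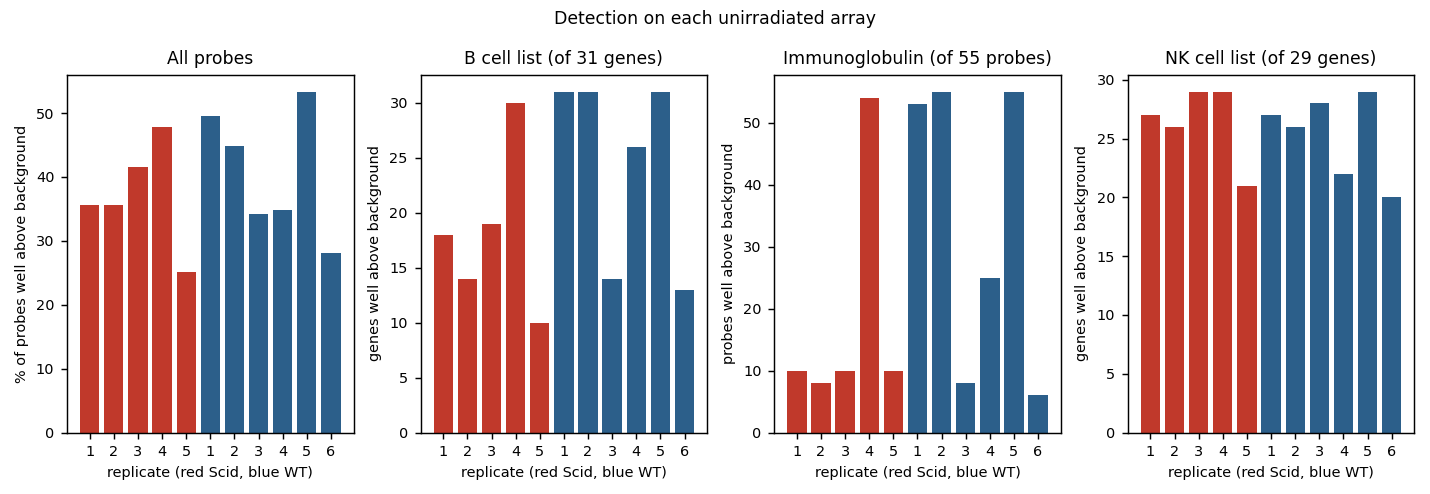
Detection on each unirradiated array, Scid in red at the left and WT in blue: the percentage of all probes well above background, and the number of B cell genes (of 31), immunoglobulin probes (of 55) and NK cell genes (of 29) well above background. Immunoglobulin probes number 54 on Scid replicate 4, 8 on WT replicate 3 and 6 on WT replicate 6, while NK cell genes number 20 or more on every array.

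MHC class II genes, which B cells and other antigen-presenting cells use to show peptides to T cells, were lower in Scid in 9 of the 10 tested of 11 listed. Their median was -1.12, -2.0 without the pair, -1.74 without Scid replicate 4 alone and -0.60 without WT replicate 2. The named members had a high and a low set of arrays as above, but with signal on dim arrays too. H2-Ab1, a chain of the I-A molecule, had 1.78, 2.92, 3.61, 5.83 and 1.69 on Scid arrays. WT arrays had 5.63, 7.66, 3.29, 5.07, 6.16 and 0.83. It differed by -1.61 (SE 0.81), and by -2.57 without the pair (limma adjusted p = 0.238). H2-Eb1, a chain of the I-E molecule, had 2.34, 3.60, 3.75, 6.18 and 3.90 on Scid arrays and 5.46, 7.54, 3.28, 4.97, 6.07 and 0.25 on WT arrays, a difference of -0.64 (SE 0.77), or -1.46 without the pair (limma adjusted p = 0.405).

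H2-Oa, a chain of the H2-O protein that restrains peptide loading in B cells (chromosome 17, 34232033 to 34232092), was among the 12 lower genes of smallest p. It had -1.67, -1.69, -2.41, 1.40 and -1.96 on Scid arrays, against 1.28, 2.71, -1.22, 0.27, 1.43 and -0.89 on WT arrays. The difference was -1.86 (SE 0.60), and without the pair it was at least 7.25-fold lower (limma adjusted p = 0.00904). H2-Oa and its partner H2-Ob were the class II genes that fell without the pair (2 of 10, against 0.224% over all genes). Ciita, the transactivator of class II genes, picked with its values in view, differed by 0.02 (SE 0.44). The dendritic cell list, the other main class II bearing cells, had a median of -0.07 over 11 tested genes, with 7 lower and 4 higher.

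T cell genes were lower in Scid in 23 of 29 tested of 35 listed, with a median of -0.80, of -1.45 without the pair and of -1.20 without Scid replicate 4 alone. At an unadjusted p under 0.05, 7 were lower (1.54% over all genes) and 0 higher (1.75%). Lef1, a transcription factor of the Wnt pathway that T cells use in development (chromosome 3, 130926200 to 130926259), had -0.83, -0.95, -1.17, 2.18 and -2.08 on Scid arrays. On WT arrays it had 2.57, 3.17, -0.56, 2.43, 2.27 and -0.30. The difference was -2.17 (SE 0.68), and -3.29 without the pair (limma adjusted p = 0.0106). Its relative Tcf7, named after its values were seen, differed by -2.06 (SE 0.76), and WT replicate 6 had 1.05, among the bright arrays.

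The probes of Cd3d and Cd3e, chains of the T cell receptor complex, did not move together. Cd3d, chosen after its values were seen, had -2.04, -3.66, -2.09, 3.27 and -1.65 on Scid arrays, against 3.21, 3.66, -1.91, 3.50, 2.68 and -2.01 on WT arrays. It differed by -2.76 (SE 1.02) and fell by 4.57 without the pair (adjusted p = 0.0113). The probe of Cd3e, its partner, had 3.97, 3.91, 2.75, 3.48 and 4.77 on Scid arrays and 3.94, 4.12, 4.05, 5.41, 3.57 and 3.95 on WT arrays. It did not follow the split of arrays, and its difference was -0.40 (SE 0.37). Cd3d and Cd3e each rest on 1 probe, and whether the probes or the transcripts differ was not tested. The co-receptor genes varied in the same way: Cd8a differed by -1.33 (SE 0.49), whereas Cd4 and Cd8b1, the brightest T cell probes, differed by -0.28 (SE 0.40) and 0.51 (SE 0.54). Cd8a was well above background on 1 Scid array, where its level was -1.25, and on 4 WT arrays. Its WT levels ran from -2.97 to 0.10.

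Genes of naive lymphocyte homing and survival were lower in 17 of 19, with a median of -0.69 and of -0.93 without the pair, when 3 of the 19 fell (0.224% over all genes). Ccr7 and Il7r are named after their values were seen. Ccr7, the chemokine receptor for entry into lymph nodes, differed by -2.22 (SE 0.83), and by -3.57 without the pair (limma adjusted p = 0.0267). Il7r, the receptor chain for the survival cytokine interleukin 7, had -0.28, -2.46, 0.10, 2.36 and -2.14 on Scid arrays. WT arrays had 1.89, 1.21, -2.13, 2.22, 1.47 and 2.75, so every one but replicate 3 lay above all Scid arrays but replicate 4. It differed by -1.72 (SE 0.80), and by -3.10 without the pair (limma adjusted p = 0.0417). The brightest members, Cd52 and Klf2, which myeloid cells express as well, differed by -0.18 and -0.08.

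NK cell genes pointed the other way. Of 33 listed genes 29 were tested, 27 higher and 2 lower in Scid, with a median of 0.42 against 0.0856 over all genes, and of 0.65 without Scid replicate 4. No member was called with or without the pair, and at an unadjusted p under 0.05 3 were higher (1.75% over all genes) and 0 lower with all arrays. Klrb1f, an activating receptor of the NKR-P1 family (chromosome 6, 129006941 to 129007000), had -0.60, -1.04, 0.58, -1.47 and 1.45 on Scid arrays. WT arrays had -1.97, -3.21, 0.07, -1.95, -3.06 and -2.05. All Scid arrays lay above all WT arrays except replicate 3. The difference was 1.81 (SE 0.58, unadjusted p = 0.00395), and 2.54 without the pair (limma adjusted p = 0.0532).

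Ncr1, which encodes the NK receptor NKp46, was at -0.45, -0.64, -0.00055, -2.65 and -0.33 on Scid arrays and at -2.05, -2.34, 0.0051, -2.11, -2.58 and -1.75 on WT arrays. The array labelled WT replicate 3 was the highest of its group and that labelled Scid replicate 4 the lowest of its group, the mirror image of Cd79b, while WT replicate 6 lay with the other WT arrays. The difference was 0.99 (SE 0.53), and 1.81 without the pair (limma adjusted p = 0.139). The brightest members, the chemokine gene Ccl5 and the granzyme gene Gzma, differed by 0.37 and 0.72. Prf1, the pore protein of killer cells, and Klrb1c, the NK1.1 antigen, differed by 0.34 each. The Ly49 receptor genes Klra1, Klra4, Klra7, Klra8 and Klra9, named after their values were seen and related in sequence so that their probes may share transcripts, differed by 0.61 to 1.0. Without the pair the list's median was 0.82, with 26 higher and 3 lower.

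**Figure D3:**
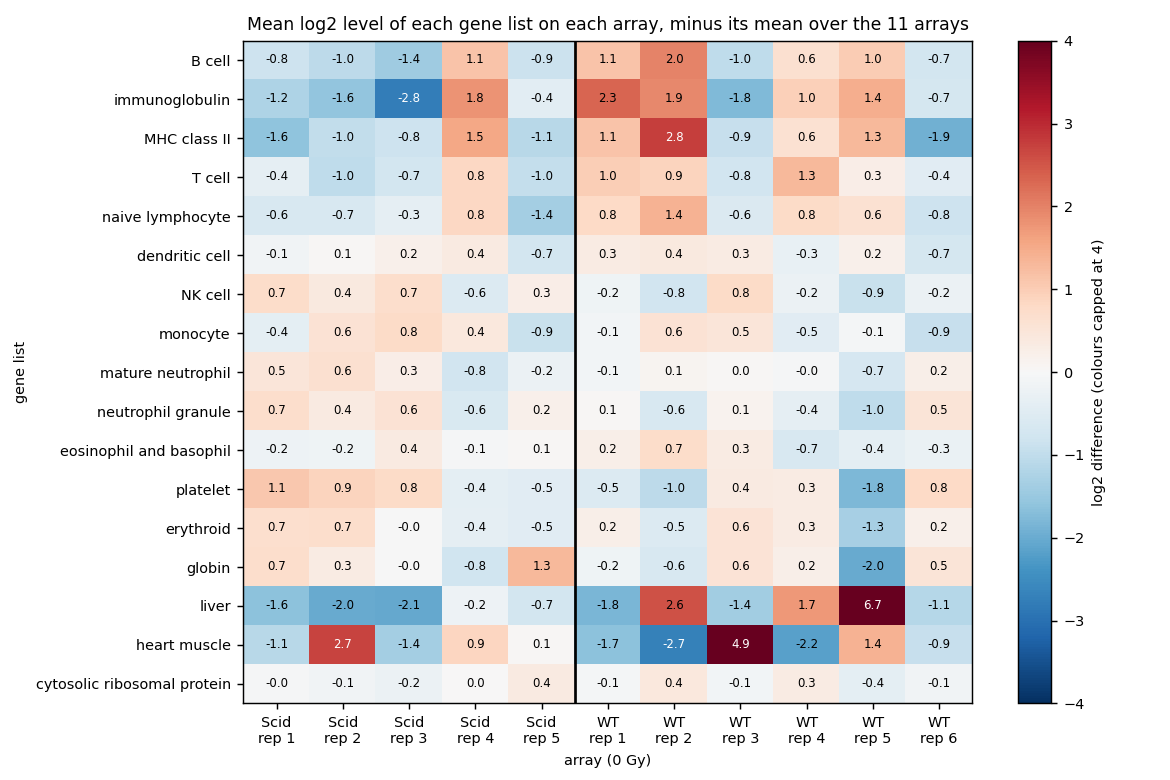
Mean log2 level of each gene list on each unirradiated array, minus its mean over the 11 arrays, with 5 Scid arrays left and 6 WT arrays right. B cell, MHC class II, T cell and naive lymphocyte rows are low on 4 Scid arrays and on WT replicates 3 and 6, liver genes are high on WT replicate 5 and heart genes on WT replicate 3.

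Scores of these lists, the mean log2 level of their tested members, show the arrays side by side. The B cell score was -0.44, -0.64, -1.01, 1.54 and -0.46 on Scid arrays and 1.55, 2.39, -0.62, 1.04, 1.42 and -0.35 on WT arrays. The NK cell score was 1.76, 1.43, 1.72, 0.47 and 1.29 on Scid arrays and 0.85, 0.26, 1.80, 0.78, 0.12 and 0.81 on WT arrays. In ATM-KO mice the B cell score ran from 1.62 to 2.40 and the NK cell score from -0.19 to 0.91. The 5 ATM-KO arrays thus lay with the bright WT arrays in B cell genes, without exception.

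Platelet genes were higher in Scid in all 23 tested, each well above background on all 11 arrays, with a median of 0.67, of 0.99 without the pair and of 0.40 without WT replicate 5. None was called, and 3 were higher at an unadjusted p under 0.05 (1.75% over all genes). Gp1bb, a chain of the platelet receptor for von Willebrand factor, had the largest difference of the list and is named after its values were seen. It had 6.23, 6.24, 5.72, 4.93 and 5.13 on Scid arrays, against 4.51, 4.37, 5.62, 4.49, 1.99 and 5.40 on WT arrays, a difference of 1.25 (SE 0.48), or 1.68 without the pair (limma adjusted p = 0.211). The brightest members were the G protein gene Gng11 and Pf4, which encodes platelet factor 4. Pf4 had 11.11, 10.81, 10.88, 9.73 and 11.28 on Scid arrays and 9.80, 9.44, 10.69, 10.69, 8.55 and 11.66 on WT arrays, and differed by 0.62 (SE 0.49). WT replicate 5 was the lowest array for both genes, and it also had the largest 75th percentile of signal (202.6, where the other arrays had 17.1 to 81.8).

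Globin genes were higher in 8 of 8 tested, with a median of 0.47, and erythroid genes in 38 of 53, with a median of 0.23. Leaving out single arrays moved the globin median between 0.20 (without Scid replicate 5) and 0.74 (without Scid replicate 4), and the erythroid median between -0.01 (without WT replicate 5), where its sign turned, and 0.39 (without WT replicate 3). Globin RNA had been reduced before labelling, so these levels reflect what that step left. Hba-a1, an alpha globin gene, differed by 0.57 (SE 0.43). The haem synthesis gene Alas2 and Mkrn1, the brightest erythroid genes, differed by 0.32 (SE 0.38) and 0.23 (SE 0.40), and no gene of the 2 lists had an unadjusted p under 0.05. Neutrophil granule genes were higher in 6 of 7 (median 0.55), mature neutrophil genes in 20 of 26 (0.22) and monocyte genes in 18 of 28 (0.29). Over all genes 43.0% were lower in Scid, and the monocyte list, with 10 of 28 lower, was near that share. With single arrays left out the mature neutrophil median ran from 0.06 (without WT replicate 5) to 0.44 (without Scid replicate 4), and the monocyte median from 0.01 (without WT replicate 6) to 0.51 (without Scid replicate 5). The brightest were Elane (neutrophil elastase, 0.79, SE 0.51) and Chil3 (0.85, SE 0.81) of the granule list, the calprotectin genes S100a8 (0.22, SE 0.59) and S100a9 (0.41, SE 0.56), and Lyz1, a lysozyme gene (0.60, SE 0.38), and Csf1r, the receptor of a monocyte growth factor (-0.04, SE 0.33). No member of these myeloid lists had an unadjusted p under 0.05. With arrays scaled to spike-in probes, which moved the median of all genes to -0.228, the medians of the erythroid, mature neutrophil and monocyte lists were -0.08, -0.10 and -0.01. Those of the B cell, T cell, MHC class II, NK cell, platelet, globin and granule lists kept their sign under each of the scalings tried.

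**Figure D4:**
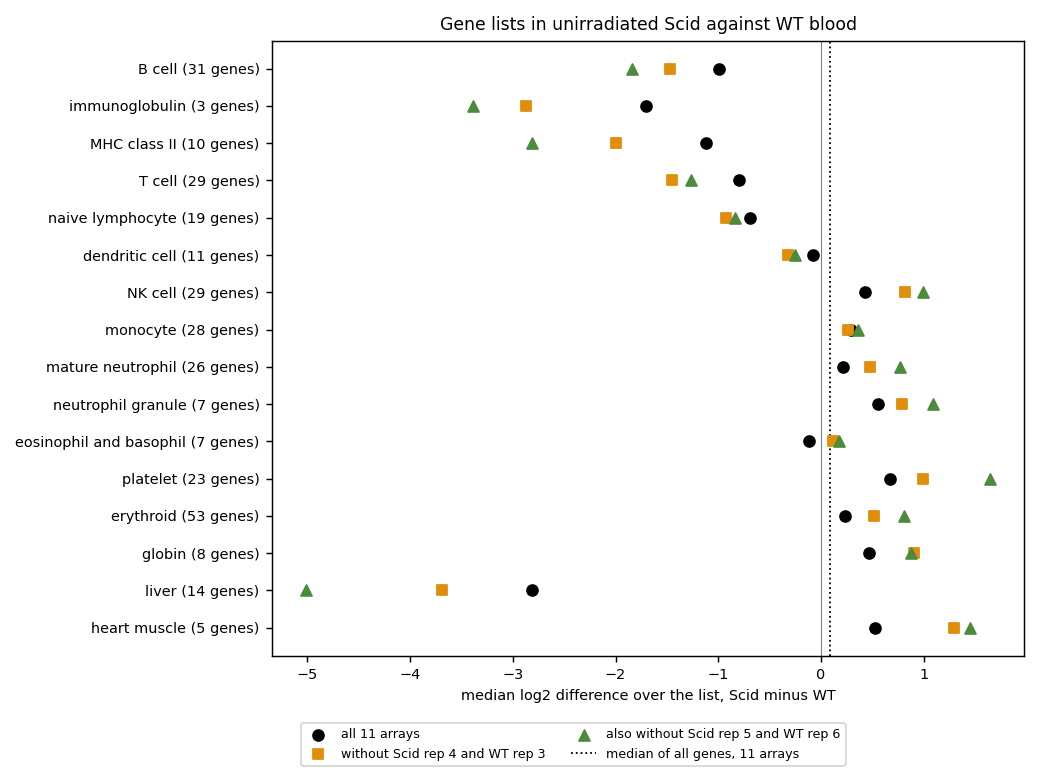
Median log2 difference, Scid minus WT, over the tested genes of each list, with all 11 arrays (black), without Scid replicate 4 and WT replicate 3 (orange) and also without Scid replicate 5 and WT replicate 6 (green). The dotted line is the median of all genes. B cell medians are -0.99, -1.48 and -1.84 and NK cell medians 0.42, 0.82 and 0.99 in that order.

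Transcripts of other organs moved with some arrays. The liver list had scores of -1.14 to 0.71 on Scid arrays, against 7.59 on WT replicate 5, 3.47 on WT replicate 2, 2.65 on WT replicate 4 and -0.90 to -0.21 on the other WT arrays. Its median difference was -2.81 over 14 tested genes, or -1.28 without WT replicate 5, and Serpina1a, an alpha-1 antitrypsin gene named after its values were seen, was the lowest at -5.27 (SE 2.57), a fit without WT replicate 6, where it has no value. The heart muscle list was bright on Scid replicates 2 (3.53) and 4 (1.70) and on WT replicates 3 (5.74) and 5 (2.23). The part of these organ transcripts in other differences was not tested.

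Medians of the remaining lists were 0.10 for 47 interferon-stimulated genes, 0.01 for 31 p53 targets, 0.22 for 26 proliferation genes, -0.21 for 15 genes of MHC class I and the immunoproteasome, -0.12 for 7 eosinophil and basophil genes, 0.10 for 17 immediate early and NF-kB genes and -0.05 for 80 cytosolic ribosomal protein genes. The brightest interferon-stimulated genes, Isg15 and Rsad2, differed by 0.53 (SE 0.52) and 0.19 (SE 0.54), and B2m, the light chain of MHC class I, by 0.80 (SE 0.44). Ube2c and Nusap1, which act in mitosis, differed by 0.08 (SE 0.43) and -0.11 (SE 0.45). For 20 genes of end joining and recombination the median was -0.05. The Ku subunit genes Xrcc6 and Xrcc5, named after their values were seen, which recruit the product of Prkdc to DNA ends, differed by -0.63 (SE 0.34) and -0.46 (SE 0.46). The brightest members, the histone variant gene H2ax and the end joining factor gene Paxx, differed by 0.55 (SE 0.44) and -0.19 (SE 0.24). Dntt, which adds bases at V(D)J joints, differed by 0.34 (SE 0.52). Cdkn1a, the p53 target p21, had -2.50, -1.0, -0.13, -0.26 and -2.25 on Scid arrays and -2.38 to -0.85 on WT arrays, a difference of 0.40 (SE 0.51).

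Several of the 12 lower genes of smallest p belong to no list. Scml4, a Polycomb family gene, had -1.36, -2.19, -1.67, 0.09 and -2.25 on Scid arrays. WT arrays had 0.31, 1.03, -1.83, 0.51, 0.45 and 0.02, so replicate 6 lay with the bright WT arrays. It differed by -1.56 (SE 0.41), and by -2.33 without the pair (limma adjusted p = 0.000749), the smallest adjusted p of that fit. Dapl1, a relative of death-associated protein 1, had -2.54, -3.33, -4.17, -0.30 and -1.56 on Scid arrays and 0.60, 1.89, -3.35, 0.50, 0.94 and 0.79 on WT arrays, a difference of -2.61 (SE 0.72), and was at least 10.4-fold lower without the pair (limma adjusted p = 0.00213). Vpreb3, Scml4 and Dapl1 were the 3 genes called when WT replicate 3 alone was left out, with limma adjusted p-values of 0.016, 0.0373 and 0.0373. Rapgef1, an exchange factor of the small GTPase Rap1 (-1.23, SE 0.35), Als2cl (-2.14, SE 0.68) and Zbtb5, a zinc finger gene (-1.24, SE 0.37), were lower too. So were Fam169b (-1.49, SE 0.44), the nuclear exoribonuclease gene Xrn2 (-1.16, SE 0.37) and Ccdc59 (-1.0, SE 0.32). None was called with all arrays, and of these 6 only Als2cl fell without the pair (limma adjusted p = 0.0106). A second kept probe of Zbtb5, well above background on 1 Scid and 2 WT arrays, differed by 0.11.

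Of the 12 higher genes of smallest p, Klrb1f is described above, and none of the 12 was called without the pair (limma adjusted p from 0.0532 to 0.311). Fam171a1 differed by 1.74 (SE 0.51), and Tppp3, a tubulin-binding protein gene, by 1.76 (SE 0.53), with 4 Scid arrays and 4 WT arrays well above background. Trappc2, a vesicle tethering gene on chromosome X (162887776 to 162887835), had -0.30, 0.20, 0.30, -0.82 and 0.74 on Scid arrays, against -1.43, -2.12, -0.55, -0.80, -2.87 and -0.86 on WT arrays. It differed by 1.46 (SE 0.46), with Scid replicate 4 within the WT range. F2rl2, a thrombin receptor of mouse platelets, had 0.64, 1.04, 0.32, -1.0 and 3.54 on Scid arrays and -2.37 to 0.25 on WT arrays, a difference of 1.67 (SE 0.57), or 1.01 without Scid replicate 5 and 2.31 without the pair. Arf2, a GTPase gene of the Golgi, was the brightest of the 12 and had the tightest groups, 2.12 ± 0.32 in Scid (SD, n = 5) and 1.33 ± 0.41 in WT (SD, n = 6), a difference of 0.79 (SE 0.26). The rest were Gm4489 (1.77), the mitotic gene Depdc1a (1.5), the potassium channel subunit gene Kcne1 (2.08), Pcnx2 (1.45), the Golgi adaptor gene Gga1 (1.05) and G6pd2, an intronless copy of the glucose-6-phosphate dehydrogenase gene that was well above background on 1 Scid array and 0 WT arrays. Pcnx2 was well above background on 1 Scid and 1 WT array, Gga1 on 3 and 1, and Kcne1 on 4 and 1. Gm4489 was so on 5 and 1, Depdc1a on 3 and 2. Many of these levels are thus near background. With normexp background correction the differences of these genes and G6pd2 were 0.26 to 0.50. Kcne1 had its highest Scid level on replicate 5 (1.86) and its lowest WT level on replicate 5 (-5.20).

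Genes near Prkdc were counted together because they are inherited with it. Within 20 Mb of the Prkdc probe on chromosome 16, 262 genes were tested, with a median difference of -0.01. At an unadjusted p under 0.05, 10 were lower and 4 higher (5.34%, against 3.29% over all genes and 1.52 to 4.76% on the other autosomes and X). None was called with all arrays. Without the pair 4 of the 262 fell (Iglv1, AF138742, AY679096 and the lambda constant 2 probe), against 34 of all 15179 genes (0.224%). The same 4 are among the 10 lower genes with all arrays, so the 5.34% is in part theirs. All 4 are probes of the immunoglobulin lambda locus, which lies in this window. Gp1bb also lies there (18621107 to 18621166).

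Slides 1, 2, 4 and 7 each held 1 Scid and 1 WT array, so the list scores could be set against each other within a slide. The B cell score differed by -1.99, -3.03, 2.15 and -1.88 on slides 1, 2, 4 and 7, and the T cell score by -1.33, -1.91, 1.6 and -1.23. For MHC class II the values were -2.75, -3.76, 2.46 and -2.39. The NK cell score differed by 0.91, 1.17, -1.33 and 1.17, and the platelet score by 1.6, 1.95, -0.77 and 1.32. Slide 4, which held both arrays of the pair, had the opposite sign to slides 1, 2 and 7 in each of these 5 lists. The pair was picked for its lymphocyte levels, so for the B cell, T cell and MHC class II scores this follows from the choice. All levels are relative to other signal on the same array, so the NK cell and platelet scores are not independent of that choice. Their opposite sign on slide 4 therefore supports nothing by itself. By scan day, the B cell score differed by -1.25 on the first day (4 Scid and 3 WT arrays) and -1.69 on the second (1 and 2), and the NK cell score by 0.37 and 0.84. The third day held 1 WT array and no Scid array.

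**Figure D5:**
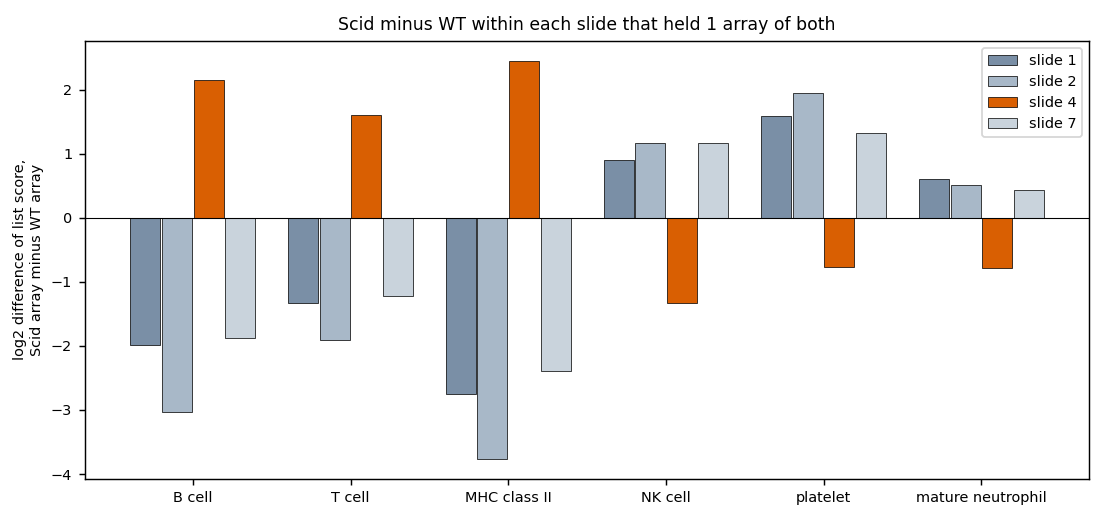
Difference in list score, Scid array minus WT array in log2 units, within each of the 4 slides that held 1 unirradiated array of both genotypes. Bars of slide 4, which held Scid replicate 4 and WT replicate 3, run opposite to those of slides 1, 2 and 7.

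Leaving out also the 2 dimmest arrays, Scid replicate 5 and WT replicate 6, was tried after seeing the data. WT replicate 6 was also low in B cell genes (score -0.35). With the pair, this omission removes every array that ran against its label in Cd79b. What the remaining arrays show for lymphocyte genes therefore follows in part from the choice and supports nothing by itself. On the 7 arrays left, 161 genes were called (1.06%), 142 lower (0.936%) and 19 higher (0.125%). Without the dimmest 2 alone 0 were called by limma, with 700 at an unadjusted p under 0.05. In the fit without 4 arrays 14 of 31 B cell genes fell, as did 7 of 29 T cell genes, 5 of 19 naive lymphocyte genes and 5 of 10 MHC class II genes. Ccr7 then fell by 5.06, Cd74 (the invariant chain of class II, picked with its values in view) by 3.66 and H2-Ab1 by 3.36. Among the 19 genes that rose, named after their values were seen, were Gp1bb (2.22, SE 0.56), the granzyme gene Gzmc (2.54, SE 0.55) and the muscle protein genes Cnn1 (2.40, SE 0.59), Tpm2 (2.11, SE 0.49) and Myom1 (1.94, SE 0.48). The heart list had a median of 1.45 in that fit, and its part in the muscle genes was not tested.

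The ATM-KO mice give a second unirradiated group. With all arrays, Scid against ATM-KO called 19 genes (0.125%), all lower in Scid, and ATM-KO against WT called 0 (0%) by limma, with 342 at an unadjusted p under 0.05. The comparisons share arrays, so their values are only set side by side. Cd79b differed by -6.89 between Scid and ATM-KO (adjusted p = 0.0494), by -3.63 between Scid and WT and by 3.26 between ATM-KO and WT (not called). For Vpreb3 the 3 values were -2.65, -2.20 and 0.45, for H2-Oa -3.27, -1.86 and 1.41, and for Lef1 -2.23, -2.17 and 0.06. For Klrb1f they were 2.07, 1.81 and -0.26, and for Ncr1 1.41, 0.99 and -0.42. ATM-KO levels of Cd79b lay between 5.09 and 6.49 on all 5 arrays, above the 2 dim WT arrays and with no array out of its group. Without the pair 250 genes were called between Scid and ATM-KO (1.65%), 26 higher and 224 lower in Scid. Most other processing settings called 0 or 1 gene between Scid and ATM-KO.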

How the data were processed

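Blood RNA of 11 mice (5 Scid, 6 WT, 0 Gy) was measured on 1-colour Agilent arrays, within a series of 32. Each deposited scanner file gives an intensity for every spot, background-subtracted within the array by Feature Extraction 11.5.1.1 per the file headers (12.0.2 per the submitters' processing notes) and not normalized between arrays. A deposited matrix gives the authors' log2 values, 98.12% or more per array within 0.01 of the log2 signal plus a constant, and served as an alternative. How its constants and probes were chosen is not given in the sources used here.

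Control spots and spots flagged as non-uniform or population outliers were left out, spots of a probe averaged, and log2 signal set to each array's 75th percentile. Of 39429 probes, the filter kept 18388 that were detected (well above background) on 4 or more arrays of any group, and the brightest kept probe stood for each of 15179 genes. Genes were named by accession (27508 probes), symbol (3544) or synonym (404) in RefSeq's table, else as in the file (7973). Positions are probe positions in mm9, per the file headers. Signal over background takes the place of depth: 25.1 to 53.4% of probes per array, and the number of arrays limits precision.

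R 4.3.3 and limma 3.58.1 fitted a mean for each of 6 groups (lmFit, then eBayes) over all 32 arrays, giving 1 pooled spread per gene, with Benjamini-Hochberg adjustment over all genes and no covariate. "At least N-fold" sets the bright group's mean against, per array, the higher of the probe's own signal and the lowest signal of any probe well above background, where a group had no array well above background. Files were read in Python 3.11.15 (pandas 2.3.3, numpy 2.4.6), the permutation test was run in R, and matplotlib 3.10.9 drew the figures. The script was tested on simulated data.

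Named genes were the 12 higher and 12 lower genes of smallest p with a symbol (none being called), the 2 brightest members of each list, fixed lookup genes and called genes within 20 Mb of Prkdc. Any other gene is said to be picked with its values in view. Members and lists were chosen with earlier results of these data known. No list was tested as a set. Alternatives changed background correction, scaling, filter, probe choice, arrays fitted, slide, scan day, replicate block, array weights and arrays left out. Probes named Rag1, Rag2, Prkdc and Atm did not pass the filter, nor did the probe named Ighm, while another heavy constant mu probe did.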

Additional observations from a re-analysis of the deposited data

Results flagged for a closer look

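In 170 groups of arrays, each the values of 1 list, gene or array measure in 1 genotype, the highest or lowest array was set against the others by Dixon's critical value. A single array stood apart in 23 of them, where chance gives about 1 in 20 groups. That rate is no comparison here, since the measures share arrays and cell types, and several genes were included because they were called without Scid replicate 4 and WT replicate 3. Most of the 23 are the array labelled Scid replicate 4. It was the highest Scid array in the B cell score (1.54), the MHC class II score (2.33), Cd79b (5.41), Ms4a1 (3.68), Fcmr (3.69), H2-Oa (1.40), Cd3d (3.27) and Cd6 (2.45). It was also highest in the immunoglobulin kappa constant probe (5.58), the lambda constant 2 probe (4.90), the lambda probe AF138742 (5.25) and the heavy chain gene Igh-VJ558 (3.98). In Ncr1 it was lowest (-2.65). A second kept probe of Cd6 had -1.42 on that array and differed by 0.44 between Scid and WT.

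The array labelled WT replicate 3 was the lowest WT array in Scml4 (-1.83), Dapl1 (-3.35), Il7r (-2.13), Trnp1 (-3.56) and Zfp292 (-3.56), and the highest in Ncr1 (0.0051). A second kept probe of Trnp1 was lowest on WT replicate 4 (-3.02). Scid replicate 5 was the lowest Scid array in the interferon-stimulated score (0.186) and the proliferation score (0.210). WT replicate 4 was the highest WT array in Cd3e (5.41), and WT replicate 5 had the highest 75th percentile of signal (202.6). The causes were not tested.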

How the results depend on the processing

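Between Scid and WT, 0 genes were called with all arrays, and 0 under normexp, quantile, median, detected-probe and spike-in scaling, the authors' values, other filters and probe choices, fits of only these arrays, and slide or scan-day blocks. Array weights called 23, and leaving out Scid replicate 4 with WT replicate 3 called 35, also leaving out the 2 dimmest arrays 161. Single omissions called 0 to 3, the 3 being without WT replicate 3. Between Scid and ATM-KO, 19 were called, but 0 under normexp, quantile, median, detected-probe and spike-in scaling, the authors' values, no filter, only the arrays of the 2 groups, a fixed slide block and without the 2 dimmest arrays, and 1 with only probes detected on all arrays. The probe of highest variance per gene called 22, a fixed scan-day block 25 and a random slide block 19. Array weights called 1640 there, omission of the pair 250 and of both pairs 234, and single omissions 0 to 203, with 203 without Scid replicate 4. ATM-KO against WT called 0, and 1 with only the arrays of the 2 groups. With a replicate block 0 were called between Scid and WT (1244 at an unadjusted p under 0.05) and 69 between Scid and ATM-KO. Same-numbered Scid and WT arrays did not deviate together (r from -0.25 to 0.09), so the numbers do not pair the mice. The causes were not tested.

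The median of all genes was -0.109 with detected-probe and -0.228 with spike-in scaling, against 0.0856. Of 1015 values of 60 named genes under other settings, 926 kept direction and side of the threshold, 88 passed it, and 1 turned direction: Igh-VJ558, 1.43 higher with the authors' values. As none of the 60 was called in the main fit, keeping that side says little, and sizes did change. With normexp Klrb1f differed by 0.43 against 1.81, Fam171a1 by 0.33 against 1.74 and Cd8a by -0.18 against -1.33. Most named genes shrank so, while Cd3e and Cd4 differed more. The B cell median was then -0.38 against -0.99, and the platelet median 0.73 against 0.67. Dim probes, and 5 against 6 arrays of which several run against their labels, limit what can be shown.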
